A study of Mus musculus with 11 samples.

Results

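The regions described here are stretches of the mouse genome that gained an accessibility peak at E1, the activated state, in mice with either of a pair of short hairpin RNAs (shRNAs). They were chosen from deposited peak lists by a rule that uses the calls themselves. Every list was shortened to its 25145 peaks of highest score on chromosomes 1 to 19 and X, and peaks of all lists that share at least 1 bp were joined into regions. A region belongs to the set when each of the 5 E1 libraries, and none of the 6 E0 libraries, has a peak in it. This holds for 571 of 59298 regions (0.963%), and the opposite pattern, a peak in each E0 library and in no E1 library, holds for 63 (0.106%). Since the E1 and E0 calls chose the regions, those calls are given as a description, with no test. With the lists left at their deposited length 1104 regions meet the same condition, and 177 of the 571 overlap one of these.

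Accessibility was measured by ATAC-seq, in which a transposase inserts sequencing adapters into open DNA, in microdissected dentate gyrus of adult C57BL/6 mice aged 8 weeks. The dentate gyrus is the hippocampal field whose main neurons are granule cells. All animals carried an adeno-associated virus, with a control shRNA (shRNA-Ctrl) or with an shRNA against c-Fos (shRNA-cFos), and 1 library was made per animal. With the control shRNA there were 3 libraries at E0 and 3 at E1, and with the shRNA against c-Fos 3 at E0 and 2 at E1. Lists of E0 are named as sham, and the series is about neuronal activation. The labels used here give neither the stimulus nor the interval behind E1, nor the share of cells that the virus reached, nor how far c-Fos was reduced. No group is without virus. The tissue is bulk, so more cells with an open site and a more open site in each cell cannot be told apart.

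In neurons, strong activity switches on immediate early genes within minutes, among them Fos, Jun and other members of the AP-1 family. AP-1 is a pair of such proteins bound to each other, and c-Fos is 1 of several proteins that can fill the Fos position. Many of the sites that AP-1 binds are enhancers, stretches of DNA away from gene starts that raise transcription of a gene and are open to transposase when occupied. The lists are in mm9 coordinates, and no sequence or gene annotation of that build was used here, so regions are given by position, and motifs, nearby genes and cell type marker genes were not analysed here.

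The deposited lists held 25215 to 78377 peaks, and 3 of them were far longer than the rest: shRNA-Ctrl E1 replicates 1 and 3 and shRNA-cFos E0 replicate 2. Length also went with state. Each E1 list held 35517 peaks or more, and each E0 list but shRNA-cFos E0 replicate 2 held 33200 or fewer. Outside that library, list length and state cannot be told apart. Read depth is unknown, so a longer list cannot be told apart from a deeper library. The score at which a list ends after shortening ran from 50 in shRNA-Ctrl E0 replicate 1 to 175 in shRNA-Ctrl E1 replicate 3. It was 69.5 or more in every E1 list, and 66.3 or less in the E0 lists other than shRNA-cFos E0 replicate 2 (162). The scores are the authors' own values for each peak, and here they serve to rank peaks within a list. A score percentile of 90 means that 90% of the kept peaks of that library score lower.

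At E1 most of the gained regions were middling peaks, and a few ranked with the strongest of the library. The strongest was chr2:138380652-138381646, 995 bp wide. Its score percentile was 97.0, 97.2 and 85.0 in shRNA-Ctrl E1 replicates 1, 2 and 3, and 92.3 and 95.8 in shRNA-cFos E1 replicates 1 and 2. It stood among the top 15% of peaks in every E1 library under both shRNAs. Its peak was number 764, 715 and 3770 by score in the 3 shRNA-Ctrl E1 lists and number 1940 and 1060 in the shRNA-cFos E1 lists. In the E0 lists as deposited it had a peak in shRNA-cFos E0 replicate 2 alone, at about number 58909 with a score of 66.0, and in the other 5 it had none.

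The next strongest regions differed more between libraries. The region at chr1:40415439-40416282 had percentiles of 96.6, 86.8 and 81.5 in shRNA-Ctrl E1 replicates 1 to 3 and of 76.5 and 71.6 in the shRNA-cFos E1 libraries. Here both shRNA-cFos libraries lay below all 3 shRNA-Ctrl libraries. The region at chr1:76831514-76832496 had 82.3, 91.7 and 69.5 in shRNA-Ctrl E1 and 89.0 and 79.2 in shRNA-cFos E1. The region at chr3:108665734-108666651 had 88.9, 88.1 and 57.4 in shRNA-Ctrl E1 and 85.3 and 87.0 in shRNA-cFos E1. In these last regions the libraries of both shRNAs overlapped, and the lowest value came from shRNA-Ctrl E1 replicate 3.

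Of the other 6 among the 10 regions with the highest mean percentile, 5 had a lower mean percentile in shRNA-cFos E1 and 1 a higher one. The higher one was chr5:141771049-141771984, where the percentiles were 64.9, 88.7 and 65.9 in shRNA-Ctrl E1 and 91.0 and 82.7 in shRNA-cFos E1. An example of the lower ones is chr3:14917096-14917867, with percentiles of 91.9, 84.2 and 79.4 in shRNA-Ctrl E1 and 65.0 and 76.0 in shRNA-cFos E1. The other 4 were chr5:41836616-41837492, chr6:145926150-145927203, chr10:17796585-17797415 and chr4:11944728-11945614. The 10 regions were 772 to 1054 bp wide and lay on 7 chromosomes.

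At the lower end of the set, regions were called in all E1 libraries by a narrow margin. The region with the lowest mean percentile, at chr7:79735252-79736089, had 11.97, 15.5 and 8.87 in shRNA-Ctrl E1 and 0.768 and 20.2 in shRNA-cFos E1. Next lowest were chr4:103302485-103303274 (mean percentile 12.6), chr19:10436802-10437450 (13.5), chr8:106833222-106834146 (14.4) and chr11:32254983-32255878 (17.0). Over the whole set 149 of 571 regions (26.1%) were under the tenth percentile in at least 1 E1 library, and 63 (11%) were above the median peak in every E1 library. Of the 9716 regions called in all 11 libraries, 6713 (69.1%) were above the median peak in every E1 library.

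**Figure D1:**
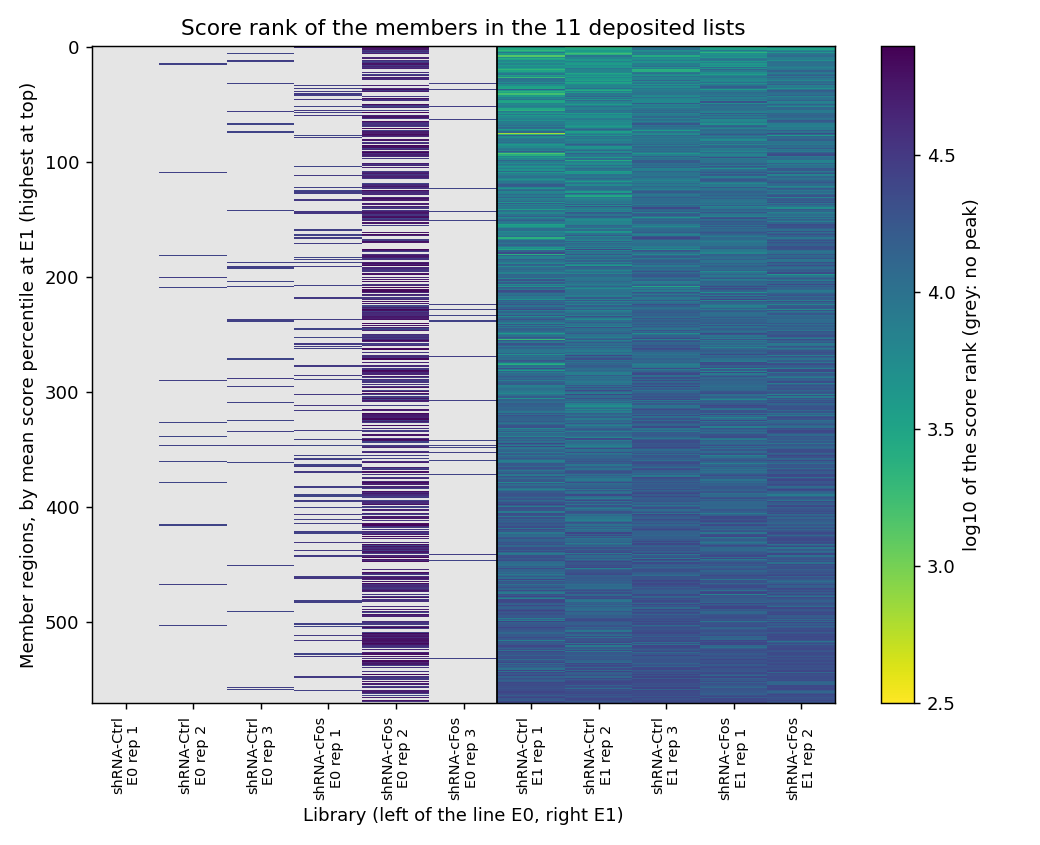
Rows are the 571 gained regions, ordered by mean score percentile at E1, and columns are the 11 libraries, E0 left of the line and E1 right of it. Colour gives log10 of the region's score rank in the list as deposited, dark for weak peaks, and grey marks no peak; the E1 columns are filled by the rule, and among the E0 columns shRNA-cFos E0 replicate 2 holds peaks in 365 regions and shRNA-Ctrl E0 replicate 1 in none.

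The shortened lists say that no E0 library has one of its 25145 best peaks in these regions, which is less than saying that nothing was there. In the full deposited lists 177 of the 571 regions (31.0%) had no peak in any E0 library. Another 260 (45.5%) had an E0 peak in shRNA-cFos E0 replicate 2 alone. Without that library, whose list is the longest at E0, 437 regions (76.5%) had no E0 peak at all.

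The count of regions with such a weak E0 peak went with the number of peaks each list held beyond the 25145 kept. It was 0 in shRNA-Ctrl E0 replicate 1, which had none beyond, 14 in replicate 2 with 3246 beyond, and 27 in replicate 3 with 4374 beyond. In shRNA-cFos E0 it was 81 in replicate 1 with 7989 beyond, 365 in replicate 2 with 49287 beyond, and 22 in replicate 3 with 3272 beyond. Where shRNA-cFos E0 replicate 2 had a peak, its median score was 91.2 and its median rank about 44500. Regions with no deposited E0 peak and regions with 1 had similar E1 strength, with a median of the mean percentile of 44.1 and 46.6 and a median width of 762 and 761 bp. A single region, at chr15:7096235-7097341, had a weak peak in 5 of the 6 E0 lists.

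The regions were then chosen again with each library left out, and read in the library that took no part in the choice. Its own peaks still shaped the region borders. In an E1 library the regions with a peak are always the gained regions, so its share depends on the other regions chosen. Chosen without it, 663, 680 and 690 regions were read in shRNA-Ctrl E1 replicates 1, 2 and 3, and 86.1%, 84.0% and 82.8% of them had a peak there. In shRNA-cFos E1 replicates 1 and 2 the shares were 80% of 714 and 67.3% of 848. The lowest E1 share was therefore that of shRNA-cFos E1 replicate 2, with a Wilson 95% interval of 64.1 to 70.4. That interval treats regions as independent and does not measure the spread between libraries.

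Read the same way, the E0 libraries had far fewer calls. The shares were 13.6%, 8.05% and 10.1% in shRNA-Ctrl E0 replicates 1 to 3, of 661, 621 and 635 regions. They were 20.1%, 15.8% and 10.2% in shRNA-cFos E0 replicates 1 to 3, of 715, 678 and 636 regions. The lowest E1 share exceeded the highest E0 share by a wide margin, and the means were 80% ± 7.44 (SD, n = 5) at E1 and 13.0% ± 4.47 (SD, n = 6) at E0. Any 1 library had a peak in 40.8% to 42.3% of all regions, so E1 libraries lay above and E0 libraries below that level. That level covers regions of every call pattern and is no baseline matched to the chosen regions. The 11 chosen sets overlap and no test was made of them; the intervals cover counting error only.

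**Figure D2:**
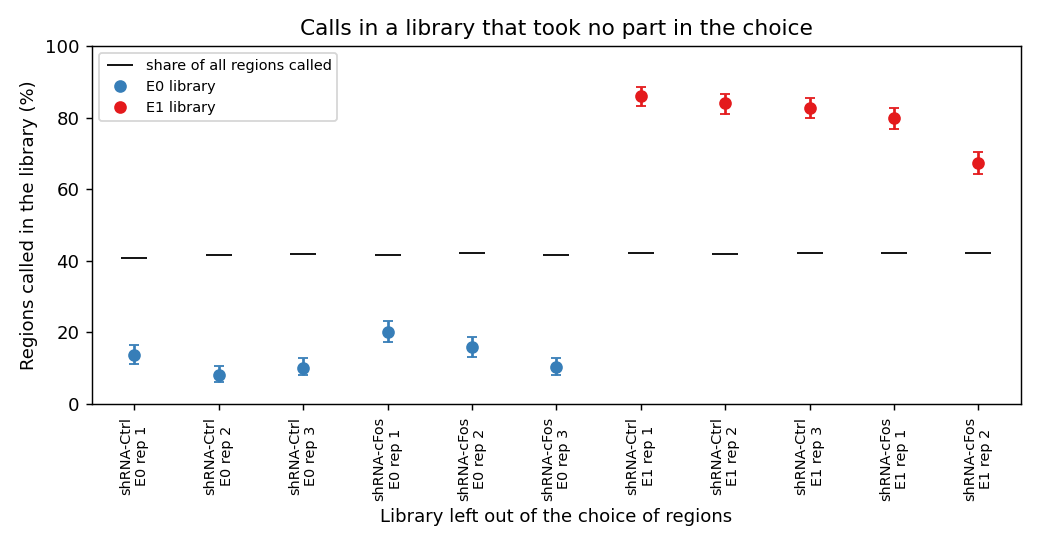
For each library on the horizontal axis, the point gives the percentage of regions called there among those chosen by the same rule from the other 10 libraries, with Wilson 95% intervals, blue for E0 and red for E1. The black dash is the percentage of all regions called in that library, between 40.8% and 42.3%; E1 points run from 67.3% to 86.1% and E0 points from 8.05% to 20.1%.

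The regions just outside the rule show which library decided. They are the same regions as in the held-out reading, counted from the other side. Of 740 regions with a peak in 4 of the 5 E1 libraries and in no E0 library, 277 (37.4%) lacked it in shRNA-cFos E1 replicate 2 and 143 (19.3%) in shRNA-cFos E1 replicate 1. The shRNA-Ctrl E1 replicates 1, 2 and 3 were the missing library in 92, 109 and 119 regions. In most of them the missing library had a weaker peak, beyond the 25145 kept: 91 of 92, 57 of 109 and 116 of 119 regions for shRNA-Ctrl E1 and in 125 of 143 and 186 of 277 for shRNA-cFos E1. The strongest such region, at chr19:19794278-19794947, had a mean percentile of 77.9 in 4 libraries and a score of 77.1 in shRNA-cFos E1 replicate 2, where the kept list ends at 84.5. The next lay at chr18:6700782-6701671 (74.7), chr18:34399092-34400593 (70.2), chr17:30655589-30656388 (69.7) and chr3:57107891-57108892 (68.2).

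Another 520 regions had a peak in all E1 libraries and in 1 E0 library. These are the regions that had a peak when the E0 libraries were read held out. The E0 library was shRNA-cFos E0 replicate 1 in 144, replicate 2 in 107 and replicate 3 in 65 regions, and shRNA-Ctrl E0 replicates 1, 2 and 3 in 90, 50 and 64. The strongest, at chr4:64903223-64904595, had a mean E1 percentile of 93.9 and a percentile of 1.15 in shRNA-cFos E0 replicate 2. That E0 peak scored 164, where the kept list ends at 162, so the region missed the set by a small margin. The others of the first 5 were chr14:88965120-88966003, chr13:111423470-111424704, chr8:33017835-33018650 and chr11:12601682-12602614, with E0 percentiles from 6.25 to 17.4.

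The peaks of the 5 E1 libraries lay at nearly the same place in most gained regions. The median width was 759 bp (quartiles 678 and 884 bp). This is between the 665 bp of all 59298 regions and the 1226 bp of the 14024 called in every E1 library, and the 9716 called in all 11 libraries had 1413 bp. Regions just outside the rule were similar, with 672 bp where 1 E1 library lacked the peak and 777 bp where 1 E0 library had it. In 568 of 571 every E1 library had exactly 1 peak, and in 569 at least 1 base was covered in all 5 libraries. The shared core had a median length of 447 bp, or 58.8% of the region. The centres of the 5 peaks lay within 100 bp of each other in 269 regions and within 200 bp in 508 (89.0%).

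Exceptions were few. At chr11:96944161-96945705 and at chr13:36787412-36788832 no base was shared by the 5 libraries, so these regions joined neighbouring peaks. The widest region was 2311 bp, at chr10:86257465-86259775, with a core of 1318 bp. Next came chr6:117968179-117970068 (1890 bp) and chr10:39095777-39097471 (1695 bp). Stronger regions tended to be wider, with a Spearman rho of 0.251 between mean percentile and width over the 571 regions, given as a description of the same peaks.

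Within each E1 library the gained regions scored below chromatin that was open in every library. Their median percentile was 53.8, 56.4 and 45.0 in shRNA-Ctrl E1 replicates 1 to 3 and 47.6 and 40.1 in shRNA-cFos E1. Regions called in all 11 libraries had medians from 77.2 to 79.8. Scores near those of the gained regions were shared by regions called in every E1 library and in only some E0 libraries. Their median of the mean E1 percentile was 47 with a peak in 1 E0 library and 52.5 in 5. It was 46.3 for the gained regions and 77 with a peak in all 6. Only 17, 4 and 1 gained regions were among the top 10% of peaks in shRNA-Ctrl E1 replicates 1, 2 and 3, and 2 and 1 in shRNA-cFos E1 replicates 1 and 2. Of the regions called in all 11 libraries, 24.3% to 25.6% were.

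**Figure D3:**
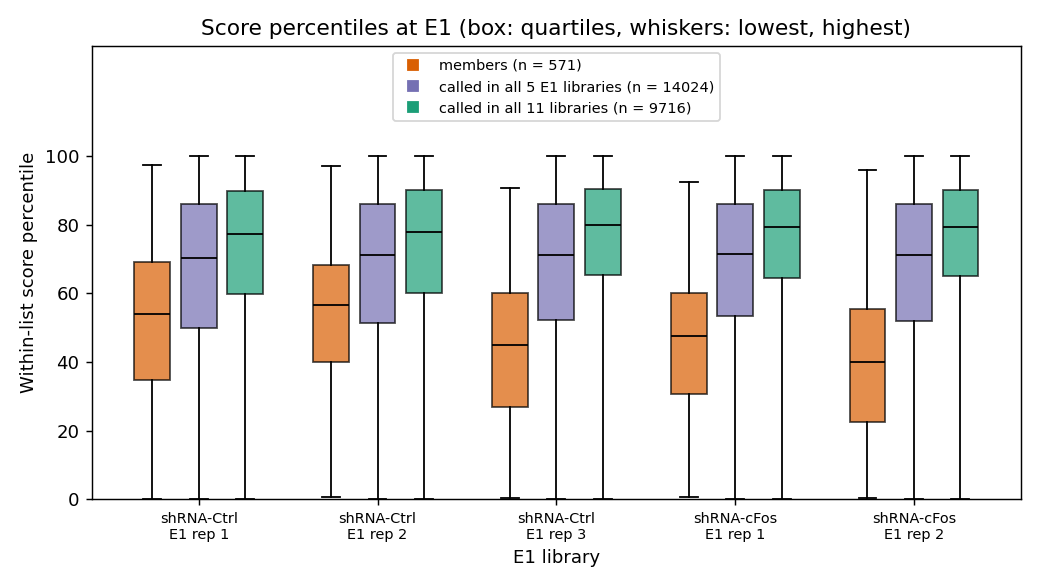
Boxes give the quartiles and the median of the within-list score percentile in each E1 library, with whiskers to the lowest and highest value, for the gained regions (orange), all regions called in the 5 E1 libraries (violet) and regions called in all 11 libraries (green). The orange medians, 40.1 to 56.4, vary between libraries, while the violet ones lie between 70.4 and 71.5.

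The next comparison asks how the gained regions ranked at E1 when c-Fos was targeted. The rule does not use which shRNA a library had, but a region leaves the set when its score in any E1 library is under the end of the kept list. The compared values are therefore cut off at their lower end, and the regions lost for want of 1 E1 library lacked a shRNA-cFos library in 143 and 277 of 740 cases. List length also differed between the shRNAs at E1. The deposited lists held 78377, 35517 and 75963 peaks in shRNA-Ctrl E1 replicates 1 to 3, and 48310 and 40686 in shRNA-cFos E1. With so few libraries, list length and shRNA cannot be told apart as sources of a difference in rank. The mean of the library medians was 51.8 ± 5.99 (SD, n = 3) in shRNA-Ctrl E1 and 43.9 ± 5.34 (SD, n = 2) in shRNA-cFos E1. The groups overlapped, since shRNA-Ctrl E1 replicate 3 lay below shRNA-cFos E1 replicate 1. The difference, shRNA-cFos minus shRNA-Ctrl, was -7.90 points and did not pass a two-sided exact permutation test (exact p = 0.3, where 0.1 is the smallest that 3 against 2 allow). It was -4.72 without shRNA-Ctrl E1 replicate 1 and -13.5 without shRNA-cFos E1 replicate 1. Without shRNA-Ctrl E1 replicates 1 and 3, the longest E1 lists, it was -10.6 over 964 regions, with 1 shRNA-Ctrl library left. With a library left out, the regroupings are too few for the exact test to reach even 0.1, so it cannot decide there. Over the 14024 regions called in every E1 library the same means were 70.9 and 71.4. With the lists as deposited the difference was -19.3 over the 1104 regions that meet the condition there. In those lists 899 of these 1104 (81.4%) had a lower mean normal score of the rank in shRNA-cFos E1. But so had 69.9% of all 23117 regions called in every E1 library there. At equal length the shares were 64.8% of the 571 and 46.1% of the 14024.

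Region by region, 378 of the 571 (66.2%) had a lower mean percentile in shRNA-cFos E1, against 45.2% of the 14024. In 124 gained regions (21.7%) both shRNA-cFos libraries lay below all 3 shRNA-Ctrl libraries, where the share over the 14024 regions was 11%. In 33 (5.78%) both lay above, where the share was 12.6%. Regions with a peak in all E1 libraries and in 1 E0 library had similar shares, 21.5% below and 9.04% above. Among the 14024 regions the share with a lower mean in shRNA-cFos E1 also varied with the number of E0 libraries that had a peak. It was 66.2% with a peak in 0 E0 libraries, which are the gained regions, 58.5% in 1, 53.3% in 2, 55.0% in 3, 47.1% in 4, 46.8% in 5 and 41.9% in all 6. Regions are not independent replicates, so these shares describe 5 libraries, whose deposited lists also differed in length.

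A fit with limma over the normal scores of the ranks of all 14024 regions called no region at an adjusted p under 0.05 (0.0% in either direction), and so none of the 571. The smallest limma adjusted p of a gained region was 0.624. At an unadjusted limma p under 0.05 there were 100 gained regions (17.5%), 82 of them lower and 18 higher in shRNA-cFos E1, against 894 of the 14024 (6.37%), of which 516 were lower. Without shRNA-Ctrl E1 replicate 2 there were 142 of 680 (20.9%), 91 lower and 51 higher, against 8.84% of all 15218 regions fitted. Without shRNA-Ctrl E1 replicate 1 there were 81 of 663 (12.2%), 59 lower and 22 higher, against 4.9% of 15050. Without shRNA-Ctrl E1 replicate 3 there were 113 of 692 (16.3%), 94 lower and 19 higher, against 7.48% of 14654. In simulated data the fit had little power: of shifts of 2 normal-score units it recovered 45 of 100, and of shifts of 1 unit 1 of 100. The simulation used independent noise, spreads shuffled over all 14024 regions and no lower cut-off. It therefore does not give the power for the gained regions themselves.

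Some gained regions show how far the ranks could part, chosen here after their values were seen. The gained region with the smallest p in the limma fit, at chr13:108603577-108604412, had percentiles of 42.6, 51.8 and 53.4 in shRNA-Ctrl E1 and 1.80 and 3.16 in shRNA-cFos E1 (limma adjusted p = 0.624). It had no peak in any E0 list as deposited. The largest differences toward lower mean percentile in shRNA-cFos E1 were at chr6:77443703-77444618, with 90.2, 49.3 and 71.2 in shRNA-Ctrl E1 and 11.9 and 13.0 in shRNA-cFos E1, and at chr1:40904384-40905001, with 80.7, 60.7 and 62.7 against 8.35 and 25.1. In the opposite direction stood chr4:132933998-132934642, with 0.119, 27.7 and 2.57 in shRNA-Ctrl E1 and 62.5 and 52.1 in shRNA-cFos E1. In each of these the libraries of the groups did not overlap.

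**Figure D4:**
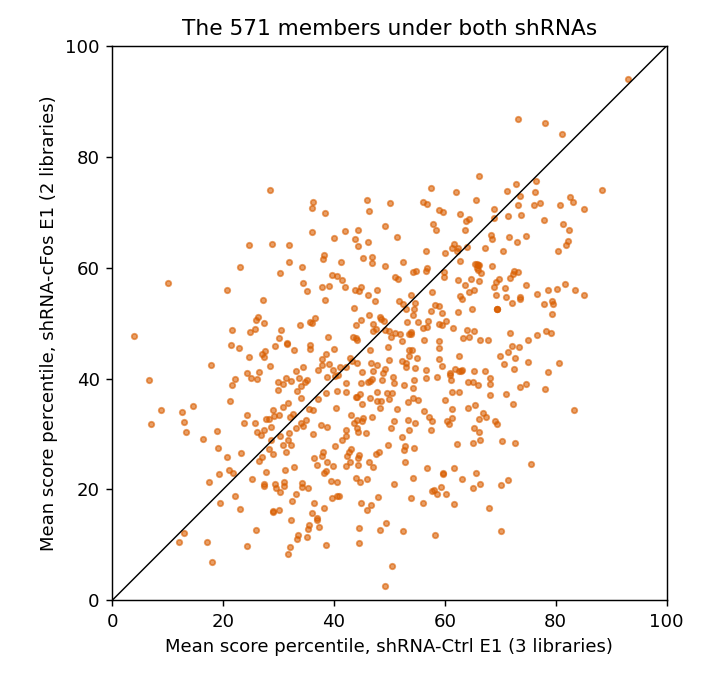
Each point is 1 of the 571 gained regions, with its mean within-list score percentile in the 3 shRNA-Ctrl E1 libraries on the horizontal axis and in the 2 shRNA-cFos E1 libraries on the vertical axis; the line marks equal values. Below the line lie 378 points, and the point at the upper right is the chromosome 2 region with means of 93.0 and 94.0.

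The order of the gained regions by score was shared only in part between libraries. Over the 571 regions the Spearman rho of the percentiles was 0.606 between shRNA-Ctrl E1 replicates 1 and 3, the libraries with the longest lists at E1. Between shRNA-Ctrl E1 replicate 2 and replicates 1 and 3 of that group it was 0.354 and 0.395. Between the shRNA-cFos E1 libraries it was 0.369, and between libraries of different shRNAs it ran from 0.213 to 0.374. Over all 14024 regions the values ran from 0.735 to 0.846, over a wider range of scores. These are descriptions across regions of the same libraries.

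Peak width in these regions did not separate the shRNAs. The median peak in a gained region was 573, 569 and 617 bp in shRNA-Ctrl E1 replicates 1 to 3 and 659 and 589 bp in shRNA-cFos E1. The ratio of shRNA-cFos to shRNA-Ctrl was 1.06 (log2 difference 0.09, two-sided exact permutation p = 0.3), and the groups overlapped. Without shRNA-cFos E1 replicate 1 the log2 difference was 0.008. Over regions called in all 11 libraries the mean of the library medians was 918 ± 124 bp (SD, n = 3) and 1090 ± 35.7 bp (SD, n = 2).

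All 20 chromosomes held some, from 57 on chromosome 1 to 13 on chromosome X. Taken as a share of the regions called in every E1 library, of which the gained ones made up 4.07% in all, chromosome 1 had 5.08%, chromosome 15 had 5% and chromosome 19 4.83%. Chromosome 4 had the lowest share with 2.85%, next to chromosome X with 2.88% and chromosome 11 with 2.90%. Of 2552 windows of 1 Mb that held any region, 463 held a gained one, and 371 of these held 1.

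The window with most lay at chr16:31000001-32000000, with 4 gained regions among 12 called in every E1 library. They lay at 31499669 to 31500336, 31593104 to 31593963, 31598494 to 31599537 and 31697342 to 31698173. The second and the third were 4.53 kb apart, and the third had percentiles of 66.1, 63.6 and 61.8 in shRNA-Ctrl E1 and 70.1 and 66.9 in shRNA-cFos E1, the most even of the 4. Another 14 windows held 3 each. Those named next were picked among them for holding the fewest regions, so their sparse surroundings follow in part from that choice. At chr8:95000001-96000000 the 3 gained regions, at 95563977 to 95564622, 95653599 to 95654469 and 95796956 to 95797753, were the only regions called in every E1 library, and the nearest region open in all 11 libraries was 295 kb or more away. At chr13:44000001-45000000 they lay at 44416354 to 44417112, 44478651 to 44479493 and 44810609 to 44811217.

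The median distance from a gained region to the next was 968 kb, and the regions called in every E1 library had a gained region at a median of 1580 kb. Within 10 kb of another lay 6 gained regions (1.05%), in 3 pairs, and within 100 kb 71 (12.4%), against 0.535% and 5.99% of the regions called in every E1 library. Besides the pair on chromosome 16 there was a pair on chromosome 9, at 75173162 to 75173976 and 75178511 to 75179234, and a pair on chromosome 15, at 25298539 to 25299887 and 25306041 to 25307603. The pairs differed in how alike their members ranked. On chromosome 15 the percentiles were 61.8, 59.4 and 20.1 in shRNA-Ctrl E1 and 46.2 and 50.9 in shRNA-cFos E1 for the first, and 43.0, 52.7 and 11.1 with 35.5 and 55.3 for the second, and the lowest library was the same in both. On chromosome 9 they were 66.5, 88.9 and 57.5 in shRNA-Ctrl E1 and 53.9 and 20.7 in shRNA-cFos E1 for the first, and 40.05, 4.60 and 54.8 with 2.97 and 35.5 for the second.

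The distance of gained regions from chromatin that was open throughout was close to that of regions in general. The median distance to the nearest region called in all 11 libraries was 79.2 kb (quartiles 30.4 and 179 kb), against 74.3 kb over all regions and 61.0 kb over those called in every E1 library. Within 10 kb of such a region lay 48 gained regions (8.41%), against 7.85% of all regions and 8.41% of those called in every E1 library. The nearest region with a peak in some E0 library was at a median of 11.8 kb, against 13.5 kb over all regions and 14.8 kb over those called in every E1 library. It lay within 10 kb for 258 gained regions (45.2%), against 40% and 35.4%. Distance and strength were hardly related, with a Spearman rho of -0.036 between mean percentile and distance to a region open in all libraries.

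**Figure D5:**
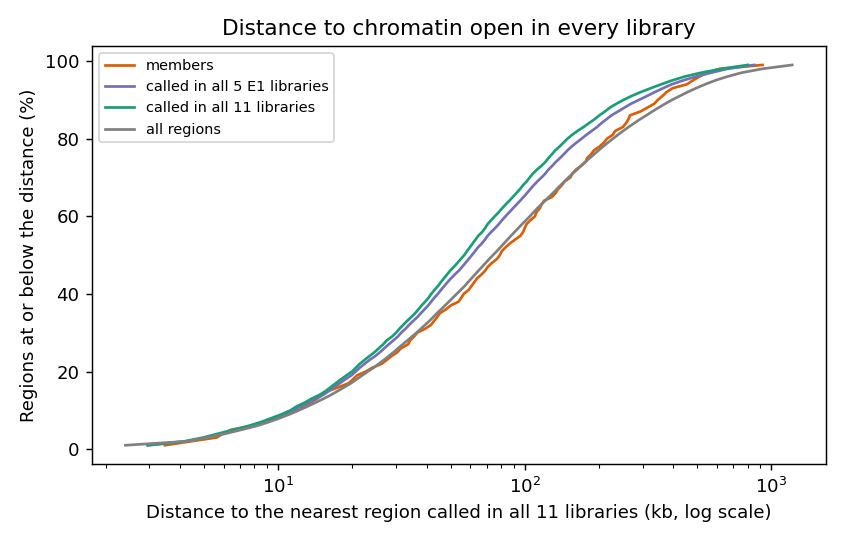
Cumulative percentage of regions against the distance to the nearest region called in all 11 libraries, in kb on a log scale, for the gained regions (orange), regions called in the 5 E1 libraries (violet), regions called in all 11 libraries (green) and all regions (grey). The orange and grey lines run close together, with medians of 79.2 and 74.3 kb, and the green line lies to the left with a median of 56.8 kb.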

How the data were processed

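The data are 11 lists of ATAC-seq peaks, 1 per library, each with a position and a score. Reads were aligned with Bowtie2 to mm9, per the submitters' processing notes, and the deposited peak names carry the name of the caller MACS. Its settings, and any filter or shift of reads, are not given in the sources used here. Per the lists, the deposited score runs from 50 to 3100 in the authors' lists, on a scale that no header states. It served only to rank peaks within a list. Of the lists, 2 (shRNA-Ctrl E1 replicates 1 and 3) lack a word that the names of the other 9 carry, and no label explains it.

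From these lists, shortening, merging, calls and percentiles were computed as the opening of the results describes. With several peaks in a region the highest score was used. Positions are 1-based. The rank fit used limma 3.58.1 (R 4.3.3) on normal scores of the ranks in the 5 E1 libraries, over regions called in all of them, with Benjamini-Hochberg adjustment and a threshold of 0.05. Library medians were compared by two-sided exact permutation. Each library is a separate animal per the labels, and single regions were not tested by permutation.

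The regions and the choice of analyses were made with earlier results of these data known. Regions named are the 10 highest and 5 lowest by mean percentile, the 3 windows of 1 Mb with most (ties settled by the fewest regions, a choice made after seeing the data), the 3 widest, 5 near misses of each kind, and those said to be chosen by their values. Alternatives were list length, a minimum score, merging distance, covered share, chromosomes, libraries needed, the summary, the scale, the replicate number and each library left out. The alternative without the 2 lists that lack the word, the regions split by E0 calls and the counts in full E0 lists were added after seeing the data. The rule and the fit were run on simulated data. All 200 planted regions were recovered by the rule, which checks the code and says nothing about the regions. Planned lists of genes and motifs were not used, since they need mm9 annotation and sequence. Python 3.11.15, numpy 2.4.6, pandas 2.3.3, scipy 1.17.1 and matplotlib 3.10.9 were used.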

Additional observations from a re-analysis of the deposited data

How the results depend on the processing

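The count of gained regions, 571, was 562 to 697 with a score of at least 100, peaks within 200 bp merged, 50% of a region covered or all chromosomes. It was 1104 with the lists as deposited, of which 177 (16% of these and 31% of the 571) overlap a region of the set. It was 359 with 15000 peaks per list, 1311 with a call missing from at most 1 E1 library, and 964 without the 2 lists that lack the added word. Leaving out 1 library gave 621 to 849, since fewer calls are then needed. The lower percentile in shRNA-cFos E1 kept its direction in all 11 alternatives, from -4.72 to -19.3 points, with exact permutation p from 0.2 to 0.667 in the 10 tested. The width difference kept its direction in 11, from 0.008 to 0.178 on the log2 scale (exact p 0.2 to 1.0 in the 10 tested). The share of held-out calls at E1 minus that at E0 was 67.0 points, and 66.4 to 72.2 in 4 alternatives. With log2 of the rank in place of normal scores limma called 1 region, which is no gained one; the other alternatives called 0. Libraries of different groups share replicate numbers by label. Over regions called in all 11 libraries, deviations from group means correlated at -0.083 to 0.158 for same-numbered libraries. For libraries of other numbers they correlated at -0.172 to 0.102. With 2 or 3 libraries per group, these values cannot decide whether same-numbered libraries belong together. With the replicate number as a block, the percentile difference was -11.3 (exact p = 0.5, the smallest that 2 pairs allow), the width difference 0.126, and limma called 0 regions. Read depth is unknown, and no permutation of 3 against 2 libraries can pass 0.05, nor one of the fewer libraries that remain when a library is left out.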
